A study of Homo sapiens with 6 samples.

Results

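Laminins are large secreted glycoproteins that are assembled from 3 different chains, 1 α, 1 β and 1 γ, and each chain is encoded by its own gene. The 9 genes described here were chosen by name from the 58735 genes of a count table, and they encode the chains α1 to α5 (LAMA1, LAMA2, LAMA3, LAMA4 and LAMA5), β1 to β3 (LAMB1, LAMB2 and LAMB3) and γ1 (LAMC1). They were picked with results of this same comparison in view, so their changes are given below as a description, without a p-value. LAMB4 and LAMC3, which encode the chains β4 and γ3, are given beside them, since a trimer cannot be formed without a β and a γ chain.

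RNA-Seq was carried out on H1155, an established neuroendocrine large cell lung cancer line, in 3 libraries labelled WT and 3 labelled GFI1-KO. All 6 were grown without treatment in DMEM with FBS, and the libraries differ by label only in GFI1, which encodes a zinc finger transcriptional repressor. The KO cells were edited by CRISPR/Cas9 with pairs of guides aimed at the GFI1 promoter region and were sorted by FACS as monoclonal GFP-positive cells. The labels do not say how many clones were sequenced or whether the libraries of a group came from separate cultures, so p-values measure the spread between these libraries, which may be technical. A difference between a single KO clone and the parental cells cannot be told apart from an effect of the edit. The study asked how GFI1 affects the adhesion of lung cancer cells to matrix proteins, laminin among them.

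In a trimer, the 3 chains wind around each other in a coiled coil, and the far end of the α chain carries globular domains that bind integrins, dystroglycan and other receptors on cells. Laminin α2β1γ1 is the main laminin of muscle and nerve, and laminin α5β1γ1 is widespread in epithelia, lung included. The α chain is generally taken to govern which receptors a laminin can use, and secretion of the whole molecule depends on assembly of the β and γ chains with an α chain.

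The libraries labelled WT held between 14882914 and 16102215 counts and those labelled GFI1-KO between 17503794 and 17692882. GFI1 itself was counted 153, 106 and 125 times in WT and 174, 188 and 170 times in GFI1-KO, so it was not lower in the edited libraries (log2 fold change 0.31, SE 0.12, adjusted p = 0.0273, edgeR; 0.18 and adjusted p = 0.205 after a correction for GC content). The mRNA therefore does not check the labels. For the deletion the paper shows an immunoblot of GFI1 protein, which mRNA counts do not measure. Of the 17514 genes tested with edgeR's quasi-likelihood test, 72.4% passed an adjusted p of 0.05, and 74.4% had normalized counts that did not overlap between the groups. The log2 fold changes of all genes rose with the GC content of the gene (Spearman's rho 0.578 across genes, which are not independent replicates), and a correction for GC content and length brought rho to 0.0236 and the called share to 60.9%. For this reason values after the correction, called corrected below, are given beside the changes. Among 8 markers of neuroendocrine cells, 6 were higher and 2 lower in GFI1-KO (36.5% and 35.9% of all genes tested). After the correction 2 were higher, 4 lower and 2 not called (33.0% and 27.9% of all genes higher and lower). All 8 were well above the floor in both groups. Of 5 epithelial markers, 4 could be tested. EPCAM (log2 fold change -2.23, corrected -2.10) and CDH1 (-2.31, corrected -2.23) were lower, from low counts. KRT8 was higher (0.45) but not called after the correction (0.03). KRT18 was not called (-0.01) and was lower after the correction (-0.51).

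Of the 9 chains, LAMA2, LAMB2 and LAMB3 rose most among those with over 100 counts in every library, and LAMA4 was the one that fell most. The DNA just upstream of LAMA2, LAMA4 and LAMB2 is shown. Their levels differ most, in either direction, among the chains with over 100 counts in every library of at least 1 group. LAMA1 had a log2 fold change of 1.75 from lower counts, and no RefSeq start was listed for it. The DNA upstream of LAMB1 is shown as that of a β chain, like LAMB2, whose level hardly differs. The runs are the 250 bases before the RefSeq start in GRCh38.p14, read 5′ to 3′ on the strand of the gene, and capitals mark AATC on either strand (written GATT where it lies on the other strand), the core of the sequence that GFI1 is known to bind.
LAMA2, chr6:128882888-128883137, plus strand: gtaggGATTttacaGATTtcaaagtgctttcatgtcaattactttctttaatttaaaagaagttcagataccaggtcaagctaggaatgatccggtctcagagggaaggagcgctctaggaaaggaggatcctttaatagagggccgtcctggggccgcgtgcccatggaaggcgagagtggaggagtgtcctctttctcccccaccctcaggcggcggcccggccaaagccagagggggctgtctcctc
LAMA4, chr6:112254568-112254817, minus strand: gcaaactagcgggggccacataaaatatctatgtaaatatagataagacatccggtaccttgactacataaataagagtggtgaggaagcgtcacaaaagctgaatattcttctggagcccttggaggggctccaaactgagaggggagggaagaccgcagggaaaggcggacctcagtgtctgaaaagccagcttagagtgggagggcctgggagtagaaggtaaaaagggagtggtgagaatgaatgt
LAMB2, chr3:49133051-49133300, minus strand: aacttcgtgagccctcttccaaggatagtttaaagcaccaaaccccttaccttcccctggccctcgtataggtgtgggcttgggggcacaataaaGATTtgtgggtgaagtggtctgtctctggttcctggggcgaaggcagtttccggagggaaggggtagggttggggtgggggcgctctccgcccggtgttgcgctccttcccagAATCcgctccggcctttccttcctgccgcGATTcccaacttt
LAMB1, chr7:108003162-108003411, minus strand: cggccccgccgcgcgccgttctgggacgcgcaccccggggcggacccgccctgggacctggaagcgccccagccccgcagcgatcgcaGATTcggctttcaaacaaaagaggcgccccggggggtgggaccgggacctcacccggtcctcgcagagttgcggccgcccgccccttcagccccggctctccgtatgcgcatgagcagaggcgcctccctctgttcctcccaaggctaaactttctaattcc

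The window of LAMA2 held 2 matches, that of LAMB2 held 3, that of LAMB1 held 1 and that of LAMA4 none. The motif is short, and 64.8% of 35116 promoters of the same length held at least 1 match, with a mean of 1.28 matches. RefSeq listed 10 starts for 8 of the 9 genes. LAMA5 and LAMC1 held no match, LAMA3 held 1, and of the 3 starts of LAMB3, 2 held 1 match each and the other none. The longer motif AAATCAC, which contains AATC, was found on either strand in 2.74% of all promoters and among these genes at LAMA3 alone, the chain whose level was not called different. A match is a string of letters and not a measured binding site. The GC content of the windows ranged from 48.4% at LAMA4 to 82.8% at LAMA5, against a median of 58.0% for all promoters.

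The α chains showed the widest range of changes. LAMA2, on chromosome 6 (128883141 to 129516569 in GRCh38), had 318, 330 and 315 normalized counts (counts scaled by edgeR's TMM method to a common depth) in WT and 4362, 4278 and 4420 in GFI1-KO. Every GFI1-KO library thus stood far above every WT library, and the libraries within each group were close together. Per length, the level went from 1.88 ± 0.0460 FPKM to 25.2 ± 0.424 FPKM (SD, n = 3 each; FPKM is the count scaled to the deposited gene length in kilobases and to the total count of the library), a ratio of 13.4. The log2 fold change was 3.76 (SE 0.05), and 3.95 after the GC correction. Among all genes tested, 0.325% had a higher log2 fold change. LAMA2 encodes the α2 chain of muscle and nerve laminins, the chain that is lost in merosin-deficient muscular dystrophy.

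LAMA4, on the same chromosome (112108760 to 112254939), went the other way. Its counts were 167, 153 and 201 in WT and 55, 46 and 62 in GFI1-KO, and the lowest WT library was well above the highest GFI1-KO library. The α4 chain is the short α chain of vascular and mesenchymal laminins. Its level fell from 0.964 ± 0.124 to 0.267 ± 0.0386 FPKM (SD, n = 3 each), a log2 fold change of -1.83 (SE 0.15) and of -1.58 after the GC correction. The ratio of LAMA4 to LAMA2 FPKM was 0.513 ± 0.0755 in WT and 0.0106 ± 0.00136 in GFI1-KO.

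LAMA5, on chromosome 20 (62307955 to 62367312), encodes the most widespread α chain of adult epithelia. It was counted 2791, 2978 and 2803 times in WT and 3869, 3763 and 4009 times in GFI1-KO. All 3 GFI1-KO libraries were above all 3 WT libraries in counts and in FPKM, which averaged 12.9 ± 0.992 and 15.4 ± 0.441 (SD, n = 3 each). The direction of this small change depended on the processing. The log2 fold change was 0.28 (SE 0.04) and turned to -0.33 (SE 0.04) after the GC correction, LAMA5 being the chain with the highest GC content, 66.4% against a median of 48.8% for the genes tested. The gene also overlaps ADRM1 on the opposite strand, whose log2 fold change was 1.01 (corrected 0.30), and the strand setting of the counting is not given in the sources used here, so reads in the overlap cannot be told apart.

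LAMA1 and LAMA3 were the lowest of the 9 chains beside LAMA4 in GFI1-KO. As a floor, 3 counts corresponded to between 0.170 and 0.202 CPM of a library. LAMA1, which encodes the α1 chain of embryonic laminin, was counted 19, 22 and 10 times in WT and 51, 70 and 72 times in GFI1-KO. The groups did not overlap, and the log2 fold change was 1.75 (SE 0.28) and 1.78 after the GC correction. The level remained low in both groups, at 0.0692 ± 0.0269 and 0.230 ± 0.0405 FPKM (SD, n = 3 each). Of the 50-base stretches in LAMA1 transcripts, 10.7% were shared with transcripts of other genes, against at most 2.54% for the other 8 chains, so its counts are uncertain.

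LAMA3, the α3 chain of epithelial laminins, was counted 27, 28 and 18 times in WT and 28, 29 and 10 times in GFI1-KO. The groups overlapped. The log2 fold change was -0.28 (SE 0.34; corrected -0.26), with a 95% interval from -0.96 to 0.39, so a difference within these bounds was not detectable at this depth. The gene makes a long and a short α3 chain from separate starts, and counts per gene do not separate them.

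**Figure D1:**
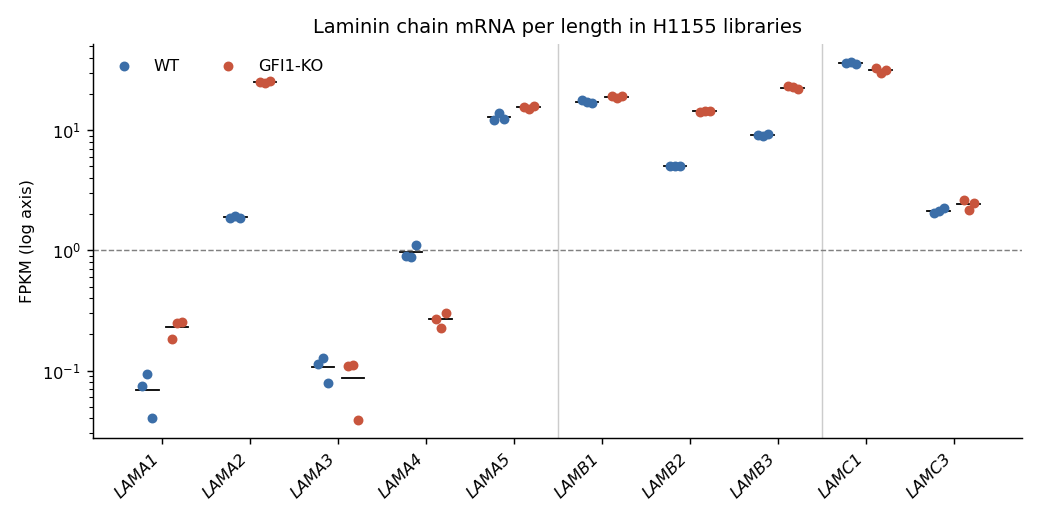
Level of 10 laminin chain mRNAs in FPKM, on a log axis, in the 3 WT and 3 GFI1-KO libraries, where each point is a library, short black lines are group means, grey vertical lines separate α, β and γ chains and the dashed line marks 1 FPKM. LAMA2 moves from 1.88 to 25.2 FPKM while LAMA4 falls from 0.964 to 0.267, and LAMB4, with at most 2 counts in any library, is left out.

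Among the β chains, LAMB2 and LAMB3 rose by similar sizes and LAMB1 hardly moved. LAMB2, on chromosome 3 (49121114 to 49133118), encodes the β2 chain of neuromuscular junction and kidney filter laminins. It was counted 557, 514 and 544 times in WT and 1704, 1736 and 1745 times in GFI1-KO. Its level was 5.04 ± 0.00938 FPKM in WT and 14.3 ± 0.112 FPKM in GFI1-KO (SD, n = 3 each), with no overlap. Its log2 fold change was 1.52 (SE 0.05), and 1.06 after the GC correction, the gene having a GC content of 60.3%. The next gene on that strand, USP19, lies 176 bases away and had a log2 fold change of 0.22, which turned to -0.17 with the correction.

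LAMB3, on chromosome 1 (209614870 to 209652466), encodes the β3 chain of epithelial laminin. Its counts were 689, 624 and 684 in WT and 1895, 1871 and 1837 in GFI1-KO, so that every GFI1-KO library was above every WT library. The mean level was 9.12 ± 0.177 FPKM in WT and 22.6 ± 0.475 FPKM in GFI1-KO (SD, n = 3 each). The log2 fold change was 1.33 (SE 0.05), and 0.85 after the GC correction (GC content 59.5%).

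LAMB1, on chromosome 7 (107923799 to 108003255), encodes the β1 chain of most laminins outside the epidermis. It was counted 2316, 2069 and 2146 times in WT and 2759, 2641 and 2755 times in GFI1-KO. Per length it went from 17.2 ± 0.444 to 19.0 ± 0.474 FPKM (SD, n = 3 each), and the groups were apart by less than 1 FPKM at their nearest libraries, 17.7 and 18.5. The log2 fold change of 0.16 (SE 0.04) and the corrected one of 0.21 had the same sign. LAMB1 overlaps DLD on the opposite strand, whose log2 fold change was -0.55 (corrected -0.01). Its neighbour LAMB4, the β4 chain, had counts of 0, 0 and 1 in WT and 1, 2 and 0 in GFI1-KO and was too low to test.

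Of the γ chains, LAMC1, on chromosome 1 (183023460 to 183145592), encodes γ1, the partner in most known laminins, and had the highest level per length of all chains in both groups. It was counted 4871, 4627 and 4661 times in WT and 4826, 4455 and 4698 times in GFI1-KO, or 36.1 ± 0.832 and 31.5 ± 1.33 FPKM (SD, n = 3 each). Raw counts overlapped between the groups and the depth-scaled values did not, the GFI1-KO libraries being deeper. This made a log2 fold change of -0.18 (SE 0.04), or of -0.10 after the GC correction.

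LAMC3, the γ3 chain, was counted 248, 239 and 267 times in WT and 347, 291 and 336 times in GFI1-KO. Its FPKM ranges overlapped, and its log2 fold change of 0.21 (adjusted p = 0.0403, edgeR) turned to -0.33 (adjusted p = 0.00325, edgeR) after the GC correction.

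**Figure D2:**
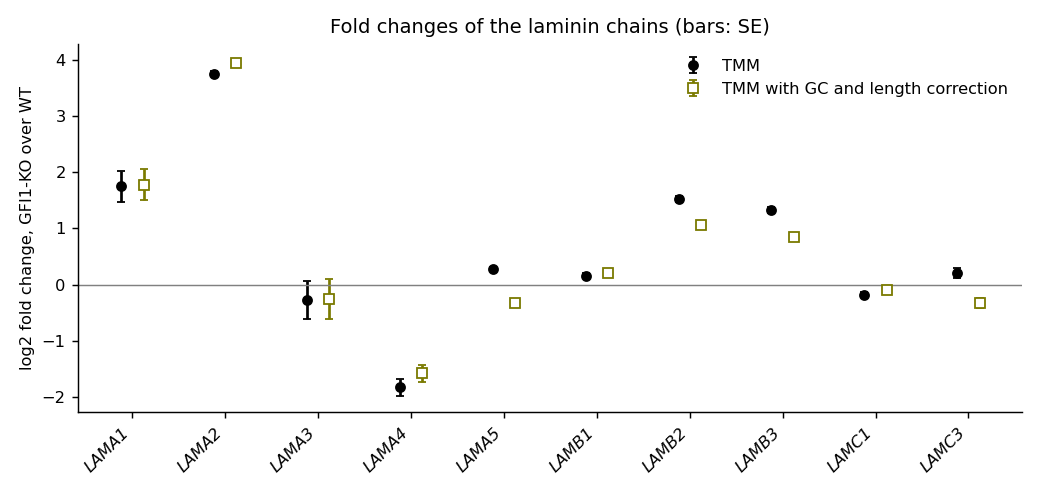
Log2 fold change of GFI1-KO over WT for 10 laminin chains (y axis), as edgeR estimates with TMM scaling (filled circles) and after the correction for GC content and length (open squares), with bars of 1 SE. The GC correction leaves LAMA2 near 4 and LAMA4 well below 0, lowers LAMB2 and LAMB3 to 1.06 and 0.85, and moves LAMA5 and LAMC3 across 0 to -0.33.

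All 9 chains passed the filter on low counts. Of these, 8 were called, 6 higher and 2 lower in GFI1-KO, where 36.5% of all genes tested were called higher and 35.9% lower. With the GC correction 5 were higher and 3 lower, where the shares over all genes were 33.0% and 27.9%. A log2 fold change of at least 1 in size was reached upwards by 4 chains (10.2% of all genes) and downwards by 1 chain (7.29% of all genes), and 8 of the 9 had groups that did not overlap in normalized counts (74.4% of all genes). The median log2 fold change of the 9 chains was 0.28 and that of all genes tested 0.00. Since these chains were picked on this comparison, the shares are printed for scale only. In bulk libraries, fewer cells that carry a chain and less mRNA per cell cannot be told apart.

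Ordered by FPKM, the WT libraries had LAMC1 first, then LAMB1, LAMA5, LAMB3, LAMB2, LAMC3, LAMA2, LAMA4, LAMA3, LAMA1 and LAMB4. Of these neighbours, LAMA3 and LAMA1 alone overlapped in their ranges. In GFI1-KO the order was LAMC1, LAMA2, LAMB3, LAMB1, LAMA5, LAMB2, LAMC3, LAMA4, LAMA1, LAMA3 and LAMB4, and LAMA4 and LAMA1 overlapped. LAMA2 thus moved from the seventh place to the place after LAMC1. Part of this order depends on the gene length used, and FPKM carries no GC correction. With the length of the canonical transcript in place of the deposited gene length, LAMB1 (27.3 ± 0.683), LAMA2 (26.9 ± 0.452) and LAMB3 (26.4 ± 0.555 FPKM, SD, n = 3 each) followed LAMC1 in GFI1-KO, and each overlapped the next in its range.

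Within the α class, LAMA5 held 80.4%, 82.1% and 80.3% of the summed α FPKM in the WT libraries and 37.5%, 37.1% and 37.7% in the GFI1-KO libraries. LAMA2 held 12.4%, 11.3% and 11.9% in WT and 61.2%, 61.4% and 60.9% in GFI1-KO. The leading α chain mRNA was therefore LAMA5 in every WT library and LAMA2 in every GFI1-KO library. Their ratio, LAMA2 over LAMA5, was 0.146 ± 0.00790 in WT and 1.63 ± 0.0194 in GFI1-KO (SD, n = 3 each). LAMA4 took 6.09% ± 0.956 and 0.646% ± 0.0803 of the class, and LAMA1 and LAMA3 less than 1% each in every library.

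Within the β class, LAMB1 held 54.8% ± 0.808 in WT and 33.9% ± 0.621 in GFI1-KO (SD, n = 3 each). LAMB3 went from 29.1% ± 0.642 to 40.5% ± 0.586 and LAMB2 from 16.1% ± 0.217 to 25.6% ± 0.475. In FPKM, which carries no GC correction, the ratio of LAMB3 to LAMB1 passed 1, from 0.531 ± 0.0196 to 1.19 ± 0.0362. The correction took the log2 fold change of LAMB3 from 1.33 to 0.85 and that of LAMB1 from 0.16 to 0.21. Whether the ratio passes 1 after it was not tested. With the canonical transcript lengths the LAMB3 share was 25.7% in WT and 37.2% in GFI1-KO and that of LAMB1 59.7% and 38.5%, so the mean of LAMB1 was then slightly the higher. Of LAMC1 and LAMC3 together, LAMC1 held 94.4% ± 0.343 and 92.8% ± 0.353, and LAMC3 5.57% ± 0.343 and 7.15% ± 0.353.

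Summed over each class, the α chains had 15.9 ± 1.02 FPKM in WT and 41.2 ± 0.868 FPKM in GFI1-KO (SD, n = 3 each). The β chains had 31.3 ± 0.426 and 55.9 ± 0.609 FPKM, and LAMC1 and LAMC3 together, taken as the γ chains here, 38.2 ± 0.785 and 33.9 ± 1.55 FPKM. The γ chains together were thus the most abundant class in WT and the least abundant in GFI1-KO, and the ratio of γ to α was 2.41 ± 0.114 in WT and 0.823 ± 0.0305 in GFI1-KO. With canonical transcript lengths it was 2.03 ± 0.0957 and 0.761 ± 0.0283, and the β chains were then slightly ahead of the γ chains in WT (41.5 and 40.4 FPKM). The 11 chains together took between 0.0741% and 0.0776% of the counts in WT and at most 0.115% in GFI1-KO.

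**Figure D3:**
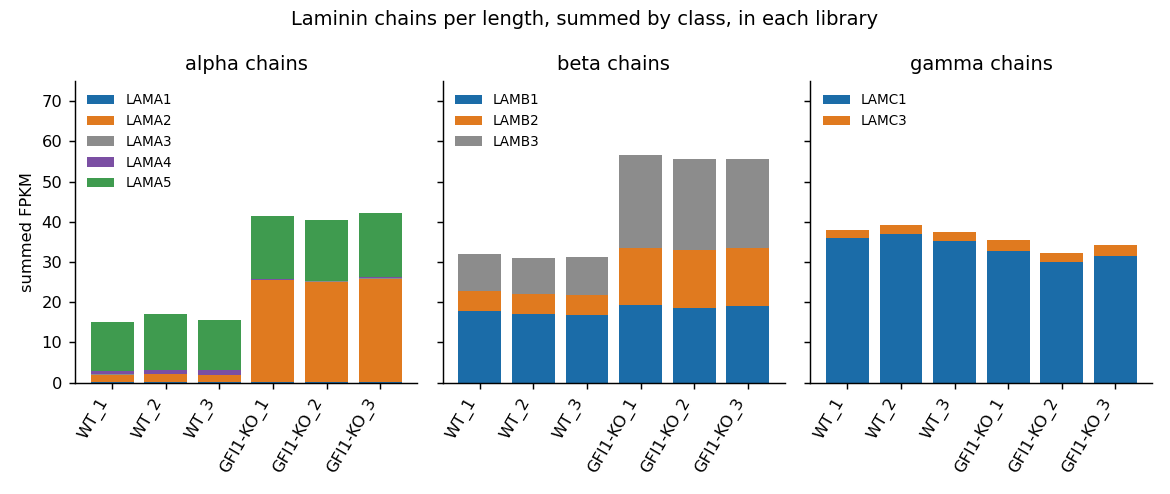
Summed FPKM of the α, β and γ chains (y axis, 3 panels) in each of the 6 libraries (x axis), stacked by gene, without LAMB4. The α bars grow from about 16 to about 41 FPKM almost wholly through LAMA2, the β bars grow through LAMB2 and LAMB3, and the γ bars are made of LAMC1 in both groups.

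Which trimers each group has the mRNA for was read from the lowest of the 3 chain levels, over 13 trimers known in the field. None of these 13 includes LAMB3, so its level does not enter the trimer values. These values describe mRNA per length without the GC correction, and they show neither protein nor assembly. In each group, 6 trimers had all 3 chains at 1 FPKM or more in every library, and they were the same 6 in both, laminins α2β1γ1, α2β2γ1, α2β1γ3, α5β1γ1, α5β2γ1 and α5β2γ3. With a minimum of 0.5 FPKM, 9 trimers passed in WT and 6 in GFI1-KO, the 3 α4 laminins being added in WT. The levels differed within that shared list. For laminin α2β1γ1 the lowest chain was LAMA2 in WT, at 1.88 FPKM, and LAMB1 in GFI1-KO, at 19.0 FPKM, a ratio of 10.1. For laminin α2β2γ1 it was LAMA2 at 1.88 FPKM in WT and LAMB2 at 14.3 FPKM in GFI1-KO, a ratio of 7.61. With canonical transcript lengths LAMA2 was the lowest chain of laminin α2β1γ1 in both groups, at 2.01 and 26.9 FPKM.

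The lowest chain of laminin α5β1γ1 was LAMA5 in both groups, at 12.9 and 15.4 FPKM, a difference whose direction reverses with the GC correction of LAMA5 given above. That of laminin α5β2γ1 was LAMB2, at 5.04 and 14.3 FPKM, a ratio of 2.84 without the GC correction. The correction lowered the log2 fold change of LAMB2 from 1.52 to 1.06. Of the trimers considered, laminin α5β1γ1 had the highest lowest chain in WT and laminin α2β1γ1 in GFI1-KO. Laminins α2β1γ3 and α5β2γ3 were held at 2.43 FPKM by LAMC3 in GFI1-KO.

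Laminins α3β1γ1 and α3β2γ1 were low in both groups. Their lowest chain was LAMA3, at 0.107 ± 0.0258 FPKM in WT and 0.0866 ± 0.0417 FPKM in GFI1-KO (SD, n = 3 each). The 3 laminins with α4 were bound by LAMA4, whose WT libraries lay between 0.888 and 1.11 FPKM, across the minimum, and whose GFI1-KO mean was 0.267. With canonical transcript lengths all 3 WT libraries passed it, between 1.42 and 1.77 FPKM, and none of the GFI1-KO libraries did, the highest being at 0.485. Laminins α1β1γ1 and α1β2γ1 were bound by LAMA1, at 0.0692 and 0.230 FPKM.

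α2, α4 and γ3 chains are also made by other cell types, so markers of such cells were counted in the same libraries. Fibroblast markers summed to between 3143 and 3227 normalized counts in WT and between 2235 and 2313 in GFI1-KO. Most of this sum was COL1A2, at a mean of 2912 in WT and 2008 in GFI1-KO. DCN, a defining fibroblast marker, was at 0 in all 6 libraries, while COL3A1 was counted 2, 3 and 2 times in WT and 129, 143 and 170 times in GFI1-KO. The muscle markers MYH11 and DES summed to between 35.4 and 50.4 in WT and between 33.4 and 47.4 in GFI1-KO. Endothelial markers summed to between 446 and 502 and between 222 and 248, with VWF, KDR and TEK at 3 counts or fewer in every library, and leukocyte markers to at most 8.47. Of the 5 fibroblast markers tested, COL3A1 and PDGFRA (log2 fold change 3.66) were higher and PDGFRB (-3.24), COL1A2 (-0.54) and COL1A1 (-0.41) lower in GFI1-KO. PDGFRA was under the floor in WT, at 1, 2 and 0 counts, and had 17, 16 and 14 counts in GFI1-KO. The endothelial sum was mostly PECAM1, at a mean of 455 and 209 normalized counts, while CDH5, at a log2 fold change of 0.47, was not called. These markers had no common direction, and the part of such cells in the changes of the chains was not tested.

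Genes for the receptors that bind laminin at the cell surface were also described from the same fit. This list and those that follow were likewise chosen with earlier results of these data known, so their p-values are a description. Of 12 laminin receptor genes, 9 were called higher and 3 were called lower, and the median change was 0.83 on the log2 scale (9 higher, 1 lower and a median of 0.47 after the GC correction; the shares over all genes are given above). ITGA6, the α6 integrin chain that binds α5 and α3 laminins, was counted 262, 250 and 253 times in WT and 617, 614 and 591 times in GFI1-KO (log2 fold change 1.09, adjusted p = 3.26e-13, edgeR; corrected 1.45). ITGA3, the other main laminin-binding integrin of epithelia, rose by 0.82 on the log2 scale (adjusted p = 2.10e-13, edgeR; corrected 0.36). ITGB4, which pairs with ITGA6 in hemidesmosomes, was low, at 34, 32 and 24 counts in WT and 65, 58 and 51 in GFI1-KO (log2 fold change 0.79, adjusted p = 0.00354, edgeR), and was no longer called after the correction (0.22, adjusted p = 0.428, edgeR).

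The non-integrin receptors included the genes that rose most. SDC4, a cell surface heparan sulfate proteoglycan, was counted 604, 505 and 665 times in WT and 3174, 3345 and 3168 times in GFI1-KO (log2 fold change 2.29, adjusted p = 1.94e-22, edgeR; corrected 2.22). BCAM, the Lutheran glycoprotein that binds α5 laminins, had a log2 fold change of 1.51 (corrected 0.83) and SDC1 one of 1.19 (corrected 0.67). DAG1, which encodes dystroglycan, a main receptor of α2 laminin, went from 3287, 3022 and 3127 counts to 4716, 4712 and 4704, a log2 fold change of 0.42 (adjusted p = 8.97e-12, edgeR; corrected 0.21). Lower were ITGA1 (-0.76), which was no longer called after the correction (-0.17, adjusted p = 0.0827, edgeR), ITGA7, the muscle laminin integrin (-0.43, corrected -0.89), and ITGB1, the β1 chain shared by most of these integrins (-0.11), which turned to 0.38 after the correction. The paper lists ITGA1 and ITGB1, along with ITGA2 and ITGA6, among the genes raised by GFI1 deletion in H1155 cells. Like ITGA6, ITGA2 was higher here (log2 fold change 0.84, corrected 1.32). It also reports RT-PCR and immunoblots for ITGB1.

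Laminin polymers are tied to the type IV collagen network by nidogen and perlecan. Of 14 such basement membrane genes, 12 could be tested, and 8 were called higher, 2 lower and 2 not called, with a median of 0.86 (8, 3 and 1 with a median of 0.26 after the correction). Over all genes tested, 36.5% were called higher and 35.9% lower (33.0% and 27.9% after the correction). COL4A2, a chain of the common type IV collagen, was counted 76, 42 and 49 times in WT and 604, 530 and 578 times in GFI1-KO (log2 fold change 3.20, adjusted p = 4.24e-18, edgeR; corrected 2.74). Its partner COL4A1 had 6, 13 and 5 counts in WT and 66, 63 and 48 in GFI1-KO (2.70, adjusted p = 3.85e-08, edgeR; corrected 2.52). COL15A1 (3.26, corrected 3.08) and NTN4, a laminin-related protein that loosens laminin networks (2.41, corrected 2.43), rose from low counts as well, and COL4A4, of the specialised kidney and lung network, fell (log2 fold change -1.35, adjusted p = 1.20e-04, edgeR; corrected -1.29). HSPG2, which encodes perlecan, had a log2 fold change of 0.85 (corrected 0.30). The nidogens, which bind the γ1 chain directly, lay near the threshold. NID1, at 0.13 (adjusted p = 0.0635, edgeR; corrected 0.07), was not called. NID2, from low counts, was at -0.77 (adjusted p = 0.0658, edgeR) and was called lower after the correction, at -0.86 (adjusted p = 0.0468, edgeR).

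Dystroglycan binds α2 laminin through a sugar chain built by a series of enzymes. Of 11 genes for this glycosylation, 5 were called higher, 3 lower and 3 not called, with a median of 0.10. After the correction 3 were higher, 2 lower and 6 not called, with a median of -0.06. The shares over all genes were 36.5% higher and 35.9% lower (33.0% and 27.9% after the correction), so these counts lie near them. POMGNT2, which builds the sugar core on dystroglycan, had a log2 fold change of 0.63 (adjusted p = 5.98e-11, edgeR), which fell to 0.04 with the correction. LARGE2, which extends the laminin-binding sugar repeat, had one of -0.64 (adjusted p = 0.00353, edgeR; corrected -1.33). GMPPB, which makes the mannose donor for these sugars, had 0.60 (corrected 0.20).

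Genes next to the chains moved with some of them and against others. LAMA2 lies between PTPRK (log2 fold change 0.86, corrected 1.18) and ARHGAP18 (-0.75, corrected -0.22 and no longer called), and LAMA4, on the same chromosome, beside FAM229B (-0.52, corrected -0.25). LAMB3 lies 22954 bases from G0S2, which had a log2 fold change of 2.26 (corrected 1.76). The pseudogenes and antisense genes that overlap LAMA2 had at most 6 counts in any library, and those that overlap LAMA4 at most 3.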

How the data were processed

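RNA-Seq of H1155 cells was analysed from 3 WT and 3 GFI1-KO libraries. The authors deposited raw counts for each gene, with the gene length and position in bases from their annotation as the other deposited values. According to the paper's methods, mRNA was selected with poly-T beads and reads were aligned to GRCh38/hg38 with Hisat2 and counted with featureCounts, whereas the submitters' processing notes name Bowtie2 and HTSeq. The strand setting, the rule for reads with several matches and the annotation are not given in the sources used here. Of 58735 identifiers, 58207 are in GENCODE release 44.

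Genes were compared with edgeR 4.0.16 in R 4.3.3 (TMM, filterByExpr, quasi-likelihood F test, Benjamini-Hochberg adjustment over 17514 genes, adjusted p of at most 0.05). Each SE was taken as the absolute log2 fold change over the root of the F statistic. FPKM used the deposited gene length and library total, without the GC correction, as did the shares, ratios and trimer values made from it. A correction for GC content and length used natural splines with 5 degrees of freedom per library. The floor of 3 counts covers counting error only. The interval given for the log2 fold change of LAMA3 was taken from its SE, so it also covers the spread between libraries. The steps were tested on simulated data. DESeq2 1.42.0, limma-voom (limma 3.58.1), other scaling factors and filters, the replicate number as a block and each library left out were tried as alternatives, and canonical transcript lengths were added after the data had been seen. The comparison was not paired. Replicate pairs within a group differed by more than sampling noise (chi-square per degree of freedom 1.85 to 4.39).

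The chains and the gene lists were chosen with earlier results of these data known. Named from each list are at most the 4 genes with the largest change in either direction at a mean of at least 10 normalized counts, and ITGA3, ITGA6, ITGB1, ITGB4, DAG1, NID1, NID2 and HSPG2. ITGA2 is named because the paper lists it. Some genes of the planned lists, and the trimer that needs one of them, are not reported here and were left out of all counts, sums and shares of those lists. Further steps used pandas 2.3.3 under Python 3.11.15, and plots matplotlib 3.10.9.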

Additional observations from a re-analysis of the deposited data

How the results depend on the processing

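Of the 9 chains, 7 kept their sign and their call under all 17 alternatives fitted to them, LAMA2 among them. LAMA3 stayed uncalled, at log2 fold changes from -0.51 to 0.07, and LAMA2 ranged from 3.72 to 3.95. LAMA5 turned to -0.33 after the GC correction, alone or with the replicate block. Also reversed by that correction, with and without the block, were LAMC3 (-0.33) and ITGB1 (0.38). POMT1 (-0.10), POMT2 (-0.09) and RXYLT1 (0.05) changed sign with it but were no longer called. The same correction left 1 receptor called lower and 3 dystroglycan glycosylation genes called higher, and of LAMB4 and LAMC3 it left 0 called higher and 1 lower. The call of LAMC3, the 1 of these that was tested, was lost (0 called higher) with DESeq2, upper-quartile factors, library size alone and a threshold of 0.01, and the count lay between 0 and 1 with each library left out. It was lost without WT replicate 1, WT replicate 2, GFI1-KO replicate 1 or GFI1-KO replicate 3, at log2 fold changes between 0.16 and 0.20. Basement membrane genes called higher numbered 5 with a minimum of 10 counts in all libraries, and those called lower 1 with that minimum, with DESeq2 and at a threshold of 0.01, and between 1 and 2 with each library left out. For GFI1 the call was lost with DESeq2 (0.31), upper-quartile factors (0.27), the GC correction (0.18, or 0.19 with the block) and at a threshold of 0.01 (0.31), and the log2 fold change ran from 0.21 without WT replicate 2 to 0.43 without WT replicate 1, the call being lost without WT replicate 2, WT replicate 3 or GFI1-KO replicate 2.

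Canonical transcript lengths gave LAMA2 shares of 10.1% in WT and 57.1% in GFI1-KO, a LAMA5 share of 40.9% in GFI1-KO, LAMB1 shares of 59.7% and 38.5%, LAMB2 shares of 14.7% and 24.3%, and LAMB3 shares of 25.7% and 37.2%. With a minimum of 0.1 FPKM, 11 trimers had mRNA for every chain in GFI1-KO and 9 in WT. With a minimum of 0.5 FPKM or 1 TPM, or with canonical lengths, it was 9 in WT and 6 in GFI1-KO, so the count of 6 in WT rests on LAMA4 lying near 1 FPKM. NID1 was called without GFI1-KO replicate 3 (0.17) and NID2 without WT replicate 3 (-0.95).

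The replicate numbers are the one basis for a pairing. Same-numbered libraries deviated together no more than others (r from -0.00337 to 0.0230 against -0.0516 to 0.0422), and the replicate block gave 12573 calls against 12680. The same number of chains was called in either direction. An alternative with protein lengths was not run. Depth limits LAMA1, LAMA3 and LAMB4.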
